A study of Mus musculus with 6 samples.

Results

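The Slc25 genes encode the mitochondrial carrier family, and 46 of them were followed in macrophages of wild-type (WT) mice and of mice labelled JWT (Tg-ACE), which the series title describes as overexpressing angiotensin-converting enzyme. They were chosen by symbol, with earlier results of these data known. Every row of the count table named Slc25a with a number and nothing else was taken, apart from Slc25a20. That gave 46 of 25509 gene rows, of which 38 had enough counts to be tested among 12827 tested genes. Both groups were C57BL/6 mice with 3 libraries each, and neither age nor the promoter that drives the transgene is given in the labels. All mice had been injected with thioglycollate, which recruits macrophages to the peritoneum. Peritoneal cells were taken on day 4, separated on a Percoll gradient and kept for 2 h in culture, and the cells that had adhered gave the RNA. The sample descriptions carry the code Exp-156 for replicate 1 of each genotype and Exp-156b for replicates 2 and 3, without saying what the codes stand for. The labels also do not say whether replicates came from separate animals, so a p-value here reflects only how these libraries vary, which may be technical.

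Mitochondrial carriers are small membrane proteins, most of them in the inner mitochondrial membrane, that exchange or import solutes which cannot cross it freely. Between them they move ADP and ATP, phosphate, citrate, malate, amino acids, nucleotides, cofactors, glutathione and iron, and so connect the respiratory chain and the citric acid cycle to the cytosol. In macrophages the export of citrate and the malate-aspartate shuttle are known for supplying lipid synthesis and redox balance during activation.

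Library totals ran from 24294244 to 28120393 counts, and levels per library are given as CPM, the counts-per-million scale on TMM-scaled totals. Ace was higher in every Tg-ACE library (100.6, 25.6 and 31.8 CPM in replicates 1 to 3) than in any WT library (16.7, 7.59 and 11.6 CPM). Its log2 fold change, 1.95 (SE 0.23), did not pass adjustment over all genes (edgeR quasi-likelihood test, adjusted p = 0.136). The Exp-156 libraries held the Y-linked Ddx3y at 47.9 and 51.5 CPM and Xist at no more than 0.527 CPM, while the Exp-156b libraries held Ddx3y at no more than 0.106 CPM and Xist at 327.1 to 454.2 CPM, so sex markers and experiment code cannot be told apart. Macrophage markers were abundant in all libraries, and 4 of their 7 tested rows (6 symbols, Itgam on 2 rows) were lower in Exp-156b. Their summed level was 21156 to 21337 CPM in Exp-156 and 17926 to 21838 CPM in Exp-156b. Most of that sum was Lyz2, with means of 15838 CPM in Exp-156 and 15432 CPM in Exp-156b. The lower rows were Itgam (log2 fold change -1.78 on both rows), Adgre1 (-1.22) and Csf1r (-0.42), while Mertk, Cd68 and Lyz2 were not called.

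Markers of other cells also moved with the code. Those of neutrophils summed to 162.3 to 492.8 CPM in Exp-156 and 16.3 to 18.3 CPM in Exp-156b (3 of 4 tested lower in Exp-156b), with Retnlg in the lead. Eosinophil markers summed to 88.1 to 222 CPM against 8.66 to 18.4 CPM (1 of 1 lower), and mast cell markers to 39.9 to 60.6 CPM against 9.40 to 19.2 CPM (4 of 4 lower). T and NK cell markers summed to 10.8 to 14.0 CPM against 2.83 to 5.43 CPM (5 of 5 lower), dendritic cell markers to 37.6 to 49.6 CPM against 1.67 to 4.11 CPM (1 of 1 lower), and erythroid and platelet markers to 5.48 to 6.62 CPM against 0.887 to 1.43 CPM (1 of 1 lower). A gene needed enough counts in 3 libraries to be tested, so genes counted almost only in the 2 Exp-156 libraries were not tested. Among them were Ccr3 (means 100.7 CPM in Exp-156 and 0.199 CPM in Exp-156b), Cd209a (22.7 and 0.221 CPM) and Flt3 (13.2 and 0.263 CPM). Of 4 large peritoneal macrophage markers, 3 were lower in Exp-156b and Gata6 was higher, and the sum was 261.3 to 266.6 CPM against 39.0 to 70.1 CPM. Mesothelial and fibroblast markers went the other way, at 130.4 to 138.1 CPM against 153.6 to 308.4 CPM (3 of 5 higher). B cell markers (89.1 to 114.2 CPM against 50.5 to 115.6 CPM, 0 of 4 called) and cycling cell markers (46.5 to 62.1 CPM against 36.3 to 59.8 CPM, 0 of 3 called) overlapped between the codes. No marker list had a gene that was 0 in every library, but Ly6g of neutrophils had 1 count in all, in WT 1. Hba-a1 of erythroid cells was counted in Tg-ACE 1 alone. For genotype, 0 markers of any list passed the test. Their part in the carrier results between the codes was not tested. In such bulk libraries, fewer cells of a type and less RNA per cell cannot be told apart.

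Between the experiment codes 10 carriers differed, some up and some down. The stretches before the RefSeq start of 4 of them are shown, so that carriers which moved in opposite directions can be read side by side: those with the largest changes among the called carriers with an entry in the RefSeq promoter table (GRCm38.p6). Each is written 5′ to 3′ on the gene's own strand, from 250 bases before the RefSeq start up to the first base of the gene's annotated exons. The Slc25a39 stretch lies inside the longer gene model of GENCODE vM21, between its exons. Capitals mark every match to CCAAT or GGGCGG, or to their reverse complements ATTGG and CCGCCC. Slc25a33 (chr4:149774278-149774517, minus strand), Slc25a10 (chr11:120491587-120491836, plus strand) and Slc25a39 (chr11:102407545-102407767, minus strand) were higher in Exp-156b, and Slc25a45 (chr19:5877572-5877807, plus strand) was lower.
Slc25a33: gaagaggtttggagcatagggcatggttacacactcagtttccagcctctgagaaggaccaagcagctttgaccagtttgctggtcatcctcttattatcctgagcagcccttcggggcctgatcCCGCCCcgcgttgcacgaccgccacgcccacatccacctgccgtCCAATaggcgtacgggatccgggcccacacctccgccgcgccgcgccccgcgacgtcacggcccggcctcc
Slc25a10: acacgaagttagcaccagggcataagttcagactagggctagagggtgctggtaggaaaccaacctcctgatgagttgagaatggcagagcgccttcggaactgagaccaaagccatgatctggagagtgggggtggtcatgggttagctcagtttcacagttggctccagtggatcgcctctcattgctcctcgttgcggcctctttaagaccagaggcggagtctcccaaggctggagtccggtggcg
Slc25a39: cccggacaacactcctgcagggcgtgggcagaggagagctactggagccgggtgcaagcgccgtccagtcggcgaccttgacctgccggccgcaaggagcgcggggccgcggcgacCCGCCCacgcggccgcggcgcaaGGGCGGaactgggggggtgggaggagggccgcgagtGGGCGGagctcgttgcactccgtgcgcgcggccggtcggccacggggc
Slc25a45: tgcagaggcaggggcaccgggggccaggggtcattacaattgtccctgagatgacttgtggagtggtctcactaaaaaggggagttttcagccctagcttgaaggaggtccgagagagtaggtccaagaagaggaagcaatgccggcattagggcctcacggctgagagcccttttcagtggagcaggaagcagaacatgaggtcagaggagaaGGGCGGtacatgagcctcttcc

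The Slc25a33 stretch holds both motifs, those of Slc25a39 and Slc25a45 hold GGGCGG only, and that of Slc25a10 holds neither. An exon of the noncoding gene Gm11788, on the opposite strand, covers 186 of the 250 bases of the Slc25a10 stretch. GGGCGG is the GC box and CCAAT the box bound by the factor NF-Y. Over whole 250-base windows on both strands, GGGCGG stood in 31 of the 45 windows of the 35 carriers with an entry (68.9%) and in 32.7% of all 32851 windows. CCAAT stood in 21 of 45 (46.7%) against 33.8%, and the E box CACGTG in 8 of 45 (17.8%) against 6.02%. The ETS motif CCGGAAG stood in 11.1% of carrier windows against 6.91%, the NRF1 core TGCGCA in 8.89% against 6.43% and the ERR motif AAGGTCA in 2.22% against 4.08%. Carrier windows also had a median GC content of 57.6% against 52.4%, and its part in the motif shares was not tested. A match is a description of the letters only, and several genes have more than 1 window. Slc25a44 and Slc25a51 are named without a stretch.

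Per kilobase of exon the carriers covered a wide range, led by the ADP/ATP carrier Slc25a5 and the phosphate carrier Slc25a3, which supply the ATP synthase. Levels between genes are given as RPKM (CPM per kilobase of annotated exon), as mean ± SD over the 6 libraries. Slc25a5 was at 213.2 ± 26.7 RPKM (183.6, 230.4 and 216.8 in WT 1 to 3; 176.6, 234.0 and 238.0 in Tg-ACE 1 to 3) and Slc25a3 at 74.4 ± 5.29 RPKM. Together these 2 carriers made up 43.9% to 49.2% of the summed RPKM of the 46 carriers in a library. The 2-oxoglutarate/malate carrier Slc25a11 (53.6 ± 3.91), the glutathione carrier Slc25a39 (35.7 ± 8.25), the ADP/ATP carrier Slc25a4 (35.3 ± 3.63) and the citrate carrier Slc25a1 (25.3 ± 2.26) came next, in RPKM. Then followed the branched-chain amino acid carrier Slc25a44 (19.7 ± 3.21), the NAD carrier Slc25a51 (19.0 ± 2.24), the ATP-Mg/phosphate carrier Slc25a24 (15.9 ± 2.28) and Slc25a45 (14.4 ± 3.69). Mitoferrin-2, Slc25a28, which imports iron, was at 10.4 ± 0.943 RPKM and the dicarboxylate carrier Slc25a10 at 9.42 ± 2.17 RPKM. This order and the share above cover only the 46 carriers chosen by symbol. Ucp2, a relative under another symbol, was at 82.4 ± 21.3 RPKM, a mean above that of Slc25a3.

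In that order no library of Slc25a5 overlapped any of Slc25a3, and the same held for Slc25a3 over Slc25a11, Slc25a11 over Slc25a39, Slc25a4 over Slc25a1 and Slc25a1 over Slc25a44. Slc25a39 and Slc25a4 overlapped, with Slc25a39 higher in 4 of 6 libraries. Each later neighbour pair down to Slc25a10 overlapped too, although Slc25a51 was above Slc25a24 in 6 of 6 libraries. In all, 11 carriers had a mean of at least 10 RPKM, 19 lay from 1 to 10 RPKM and 16 were under 1 RPKM.

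**Figure D1:**
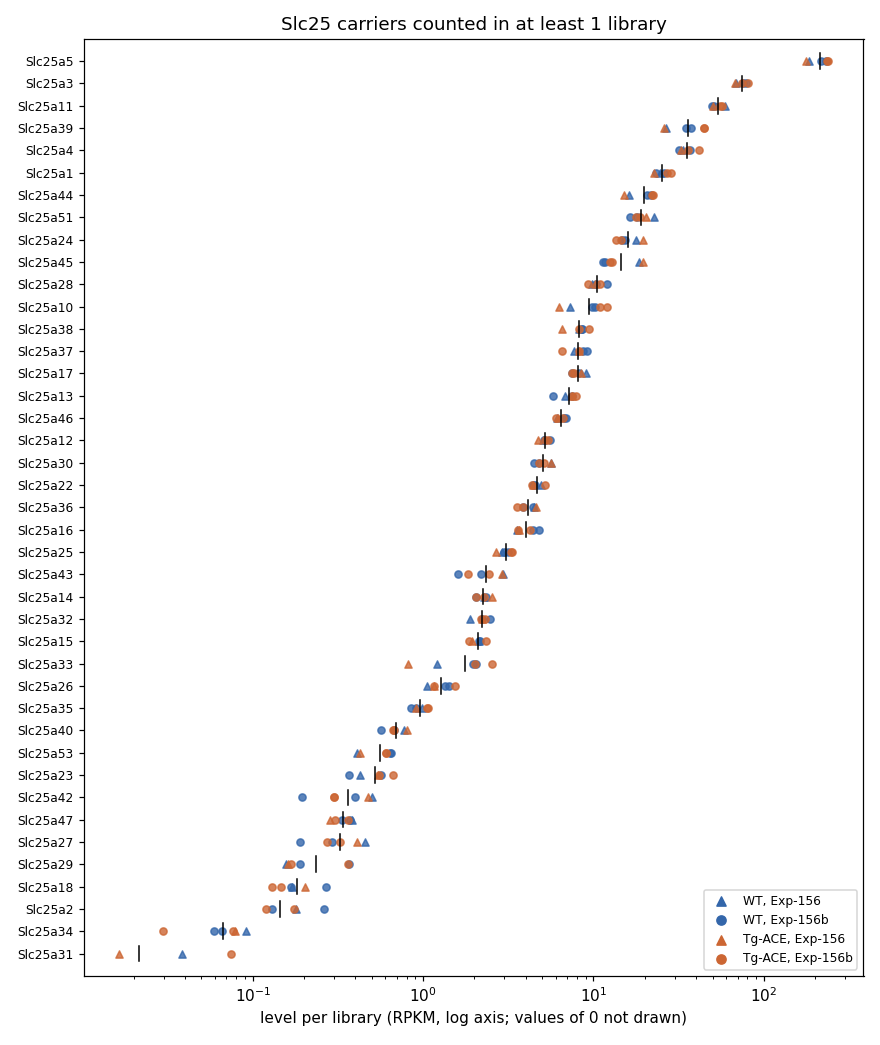
Level of the Slc25 carriers counted in at least 1 library, in RPKM on a log axis, with 37 of the 38 tested carriers drawn. Points are 1 per library, coloured by genotype and shaped by experiment code. Slc25a5 stands above all other carriers in every library, and the libraries of most carriers lie close together relative to the distance between carriers.

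Of the 16 carriers under 1 RPKM, 8 were at or near 0. Slc25a21, Slc25a41, Slc25a48 and Slc25a54 had 0 counts in every library, which allows at most 0.105 to 0.123 CPM in a library (3 counts of its TMM-scaled total, counting error only). Slc25a31, the germ line ADP/ATP carrier, had 0 to 4 counts per library. The ornithine carrier Slc25a2 had 0 to 9, Slc25a34 had 2 to 6 and the glutamate carrier Slc25a18 had 6 to 13 counts. These 8 carriers did not pass the filter on low counts and were left out of all tests.

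Reads of some carriers cannot be placed with certainty. Of all 75-base windows in its transcripts, 19.8% of those of Slc25a5 also occur in transcripts of other genes, most often Gm5560. The share was 6.55% for Slc25a37, 5.52% for Slc25a36, 2.60% for Slc25a40 and under 1% for the other carriers. Exons of 12 carriers overlap exons of a gene on the opposite strand, among them Slc25a10, Slc25a11, Slc25a23, Slc25a33 and Slc25a37. The libraries mark strand, but how strand was treated in counting is not stated in the labels. Slc25a51 also shares 125 bases with Gm25692 on its own strand.

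Between the experiment codes, 10 of the 38 tested carriers differed: 6 were higher in Exp-156b (Slc25a33, Slc25a10, Slc25a39, Slc25a53, Slc25a44 and Slc25a5) and 4 were lower (Slc25a45, Slc25a24, Slc25a51 and Slc25a30). The changes ran from 1.18-fold to 2.11-fold. The share called, 26.3%, stood beside 42.9% of all tested genes. By direction, 15.8% of carriers were higher against 20.0% of all genes, and 10.5% were lower against 22.9%. Genes counted almost only in the 2 Exp-156 libraries were not tested and are outside these shares. The median log2 fold change was 0.06 for carriers (0.02 without Tg-ACE 1 and 0.10 without WT 1) and -0.00 for all genes, and the median absolute log2 fold change was 0.20 against 0.30. In 22 of 38 carriers the libraries of the codes did not overlap, 57.9% beside 59.8% of all tested genes (12 higher in Exp-156b, 31.6% beside 28.9%, and 10 lower, 26.3% beside 30.9%). The carriers' summed level was 1759 ± 39.3 CPM (SD, n = 2) in Exp-156 and 1928 ± 49.5 CPM (SD, n = 4) in Exp-156b, with no overlap. Much of this gap lay in 2 abundant carriers, Slc25a5 (means 296.4 and 378.3 CPM) and Slc25a3 (379.0 and 430.1 CPM). By sign, 23 of the 38 carriers were above 0 and 15 below. These tests are edgeR's quasi-likelihood test of the code with genotype as a further term, adjusted over all 12827 genes. Only 2 libraries carried Exp-156. Leaving out Tg-ACE 1 or WT 1 leaves Exp-156 with 1 library. Fewer carriers were then called, and fewer of all tested genes as well.

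**Figure D2:**
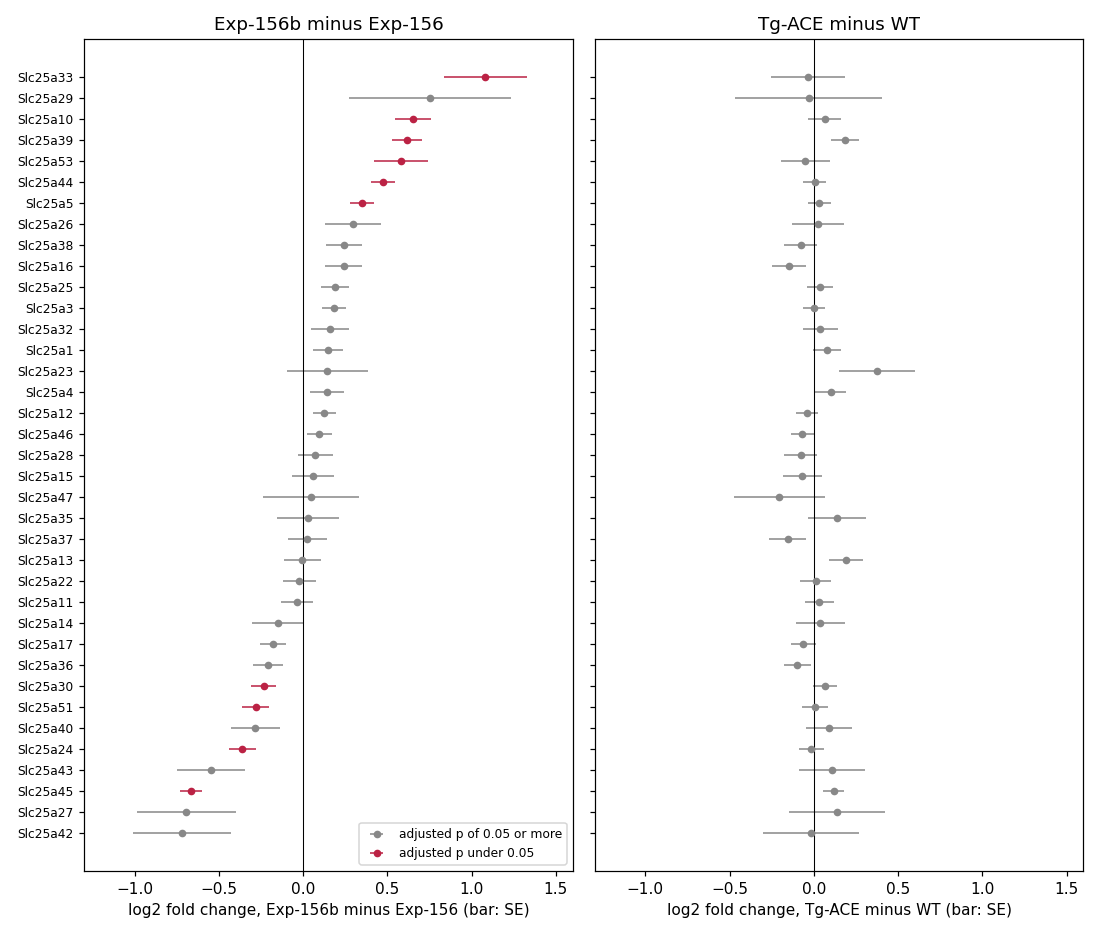
Log2 fold changes of 37 of the 38 tested carriers between experiment codes (left) and between genotypes (right), with bars of 1 SE, ordered by the change between codes. The 10 carriers in red passed an adjusted p of 0.05 for the code, and 0 did so for genotype.

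Among the carriers of ADP, ATP and phosphate, 6 of 9 could be tested; Slc25a5 rose in Exp-156b, Slc25a24 fell and 4 did not pass. Slc25a5 (X:36795651-36798807, GRCm38), the ADP/ATP carrier ANT2, was at 302.2, 379.2 and 356.8 CPM in WT 1 to 3 and at 290.7, 385.2 and 391.8 CPM in Tg-ACE 1 to 3. Replicate 1, the Exp-156 library, was the lowest of both genotypes. The log2 fold change was 0.35 (SE 0.07, adjusted p = 0.00599), and without Tg-ACE 1 it was 0.28 (adjusted p = 0.0622). Slc25a24 (3:109123149-109168457), a calcium-regulated ATP-Mg/phosphate carrier, went the other way at 60.7, 52.9 and 50.1 CPM in WT and 67.2, 46.5 and 49.9 CPM in Tg-ACE. Both Exp-156 libraries lay above all of Exp-156b, with a log2 fold change of -0.36 (SE 0.08, adjusted p = 0.00867) that came to -0.24 without Tg-ACE 1 (adjusted p = 0.103).

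Slc25a3 held 380.6, 419.4 and 437.7 CPM in WT and 377.4, 449.7 and 413.6 CPM in Tg-ACE. Its libraries did not overlap between codes, but the log2 fold change of 0.18 had an adjusted p of 0.0703. The second ADP/ATP carrier, Slc25a4, had 78.9, 75.0 and 86.2 CPM in WT and 76.2, 83.8 and 98.1 CPM in Tg-ACE, and its codes overlapped (log2 fold change 0.14, adjusted p = 0.285). Slc25a25 (0.19) and Slc25a23 (0.14), ATP-Mg/phosphate carriers as well, did not pass either.

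Of the carboxylate and malate-aspartate shuttle carriers, 5 of 6 were tested and the dicarboxylate carrier Slc25a10 alone passed. This carrier (11:120491840-120499187), which exchanges malate and succinate for phosphate, was at 25.3, 35.3 and 33.7 CPM in WT and 21.8, 37.7 and 41.4 CPM in Tg-ACE. The Exp-156 libraries were the 2 lowest by a wide gap, and the log2 fold change was 0.65 (SE 0.11, adjusted p = 0.00239). Slc25a1, the citrate carrier, had 53.2, 55.8 and 50.4 CPM in WT and 48.9, 58.7 and 61.7 CPM in Tg-ACE, with codes overlapping (log2 fold change 0.15). Slc25a11, which works in the malate-aspartate shuttle, had 124.6, 105.3 and 107.5 CPM in WT and 106.5, 117.6 and 120.7 CPM in Tg-ACE (-0.04). The aspartate/glutamate carriers Slc25a12 (0.13) and Slc25a13 (-0.00), also of that shuttle, did not pass.

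Of the amino acid carriers, 5 of 7 were tested and Slc25a44 rose. It (3:88410498-88425139) is known as a branched-chain amino acid carrier and was at 58.1, 78.2 and 73.5 CPM in WT and 53.7, 78.7 and 80.0 CPM in Tg-ACE. All 4 Exp-156b libraries lay above both of Exp-156, with a log2 fold change of 0.47 (SE 0.07, adjusted p = 0.0019). The log2 fold changes of Slc25a29 (0.75, at no more than 0.953 CPM in any library), the glycine carrier Slc25a38 (0.24), the ornithine carrier Slc25a15 (0.06) and the glutamate carrier Slc25a22 (-0.02) did not pass.

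All 9 nucleotide and cofactor carriers were tested; 1 rose and 1 fell. Slc25a33 (4:149744036-149774277), an importer of pyrimidine nucleotides, had a log2 fold change of 1.08 (SE 0.25, adjusted p = 0.00998), from 1.92 ± 0.526 CPM in Exp-156 (SD, n = 2) to 4.04 ± 0.517 CPM in Exp-156b (SD, n = 4). By library it was at 2.29, 3.87 and 3.69 CPM in WT and 1.55, 3.78 and 4.81 CPM in Tg-ACE, so this change rests on low counts. Without Tg-ACE 1 it was 0.72 (adjusted p = 0.114). Slc25a51 (4:45395923-45408766), which brings NAD into mitochondria, was at 124.9, 99.2 and 90.0 CPM in WT and 112.3, 103.4 and 97.5 CPM in Tg-ACE. Its Exp-156 libraries were the highest, and the log2 fold change was -0.28 (SE 0.08, adjusted p = 0.0259). Without WT 1, WT 3 or Tg-ACE 3 in turn it did not pass, at -0.17, -0.22 and -0.26.

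Those of this group that did not pass ran from -0.72 for the coenzyme A carrier Slc25a42 (adjusted p = 0.0821) to 0.30 for the S-adenosylmethionine carrier Slc25a26. Between them lay the pyrimidine nucleotide carrier Slc25a36 (-0.21), the peroxisomal Slc25a17 (-0.18), the folate carrier Slc25a32 (0.16) and Slc25a16 (0.24), another carrier linked to coenzyme A.

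The iron and glutathione carriers were all tested, and 1 of 4 passed. Slc25a39 (11:102402985-102407946), which imports glutathione, was at 73.1, 96.4 and 103.5 CPM in WT and 71.3, 123.2 and 122.1 CPM in Tg-ACE. Exp-156 held 72.2 ± 1.25 CPM (SD, n = 2) and Exp-156b 111.3 ± 13.5 CPM (SD, n = 4), with no overlap and a log2 fold change of 0.61 (SE 0.09, adjusted p = 0.00147). Its relative Slc25a40 lay at -0.28 (adjusted p = 0.148). Slc25a28 had 36.9, 38.7 and 44.9 CPM in WT and 38.5, 40.8 and 34.6 CPM in Tg-ACE (0.07), and the other mitoferrin, Slc25a37, lay at 0.03.

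Slc25a30 (14:75760117-75787037), a relative of the uncoupling proteins, was the 1 of 3 such carriers to pass. It had 25.8, 21.8 and 20.6 CPM in WT and 25.8, 23.3 and 21.98 CPM in Tg-ACE, with a log2 fold change of -0.23 (SE 0.08, adjusted p = 0.038). The call was lost in DESeq2 (adjusted p = 0.112) and when any 1 library was left out. Slc25a14 (-0.15) and Slc25a27 (-0.69, adjusted p = 0.0922) did not pass.

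Among 6 tested carriers of 8 whose substrate is not settled or whose role is another, Slc25a45 fell and Slc25a53 rose. Slc25a45 (19:5877808-5885878) had the smallest p of all carriers: 51.4, 32.2 and 31.2 CPM in WT and 54.2, 35.4 and 34.4 CPM in Tg-ACE. The means were 52.8 ± 2.0 CPM in Exp-156 (SD, n = 2) and 33.3 ± 1.94 CPM in Exp-156b (SD, n = 4), a log2 fold change of -0.66 (SE 0.06, adjusted p = 0.000216). Slc25a53 (X:136981116-137038302) was at 3.27, 5.11 and 5.16 CPM in WT and 3.37, 4.82 and 4.81 CPM in Tg-ACE. Its log2 fold change was 0.58 (SE 0.16, adjusted p = 0.021), and the call was lost without WT 1, WT 3 or Tg-ACE 1. Slc25a43 (-0.55, adjusted p = 0.0614), Slc25a35 (0.03), Slc25a47 (0.05) and Slc25a46 (0.10), an outer membrane protein of mitochondrial dynamics, did not pass.

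Slc25a10, Slc25a39, Slc25a44 and Slc25a45 were called under all 12 alternative settings. Of the 4 X-linked carriers tested, 2 were called, Slc25a5 and Slc25a53, both higher in Exp-156b. Slc25a14 and Slc25a43, at -0.15 and -0.55, lay the other way without passing. Over all tested genes 40.0% of X-linked and 43.0% of autosomal genes were called.

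**Figure D3:**
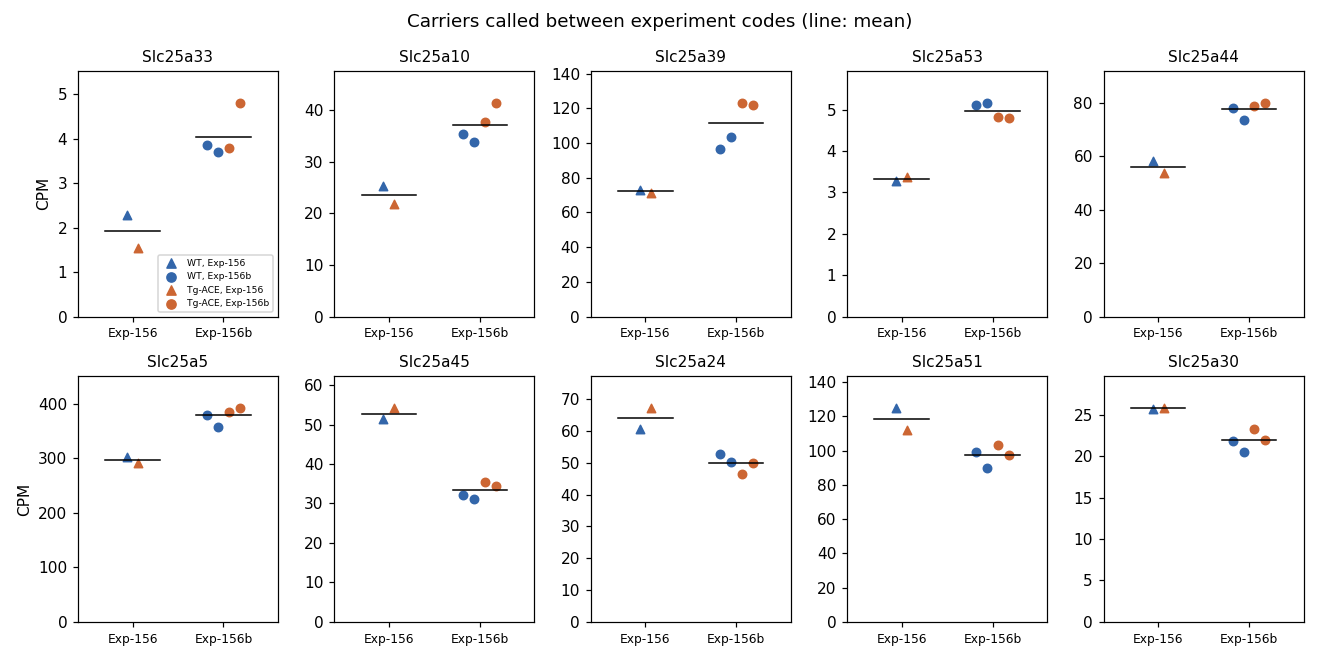
CPM in each library of the 10 carriers called between the experiment codes, with colours for genotype, shapes for code and a line at the mean of each code. In all 10 panels the 2 Exp-156 libraries lie outside the range of the 4 Exp-156b libraries.

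For genotype 0 of the 38 tested carriers were called in either direction. Their log2 fold changes lay between -0.20 (Slc25a47) and 0.38 (Slc25a23). The comparison asks whether the transgenic macrophages differ from WT in these genes, with the code as a term. Over all genes 0.0156% were called, 2 of 12827. At an unadjusted p under 0.05 there were 0 of 38 carriers against 6.48% of all genes, and DESeq2 and limma-voom called 0 carriers as well. Slc25a20, which was left out of the 38, had an unadjusted edgeR p of 0.00155, so the 0 of 38 depends on leaving it out. In 0 of 38 carriers did the WT and Tg-ACE libraries separate, against 4.91% of all tested genes (2.38% higher and 2.53% lower in Tg-ACE). The code is not taken out here, so a carrier that moved with it can overlap. Slc25a45 did so, with Tg-ACE above WT within each code. The median log2 fold change was 0.02 for carriers and -0.01 for all genes, with 23 carriers above 0 and 15 below. Leaving out 1 library at a time, the carrier median ran from 0.0026 without WT 2 to 0.07 without Tg-ACE 1. Standard errors ran from 0.06 to 0.44 with a median of 0.10, so small differences were not detectable with these libraries. Differences of many SE can go uncalled too, as Ace did at a log2 fold change of 1.95 (SE 0.23). The lack of calls therefore does not show that no carrier changed. The summed carrier level was 1854 ± 58.4 CPM in WT and 1889 ± 138.4 CPM in Tg-ACE (SD, n = 3 each).

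The smallest genotype p belonged to the glutathione carrier Slc25a39, whose libraries are given above. Its means were 91.0 ± 15.9 CPM in WT and 105.5 ± 29.7 CPM in Tg-ACE (SD, n = 3 each). The log2 fold change was 0.19 (SE 0.08, edgeR adjusted p = 0.767), and Tg-ACE was above WT in Exp-156b but not in Exp-156. It was 0.30 without WT 1 (edgeR adjusted p = 0.466) or Tg-ACE 1 (edgeR adjusted p = 0.471), and 0.13 without WT 2. Slc25a45 followed, with 38.3 ± 11.4 CPM in WT and 41.3 ± 11.1 CPM in Tg-ACE and a log2 fold change of 0.12 (SE 0.06, adjusted p = 0.791). Its Tg-ACE libraries lay above the WT libraries of the same code in both experiments.

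Slc25a13, citrin, which exports aspartate in the malate-aspartate shuttle, was at 25.9, 21.9 and 28.4 CPM in WT and 28.5, 30.2 and 28.2 CPM in Tg-ACE (log2 fold change 0.19, SE 0.10, edgeR adjusted p = 0.791). The genotypes overlapped, and the change was 0.08 without WT 2 and 0.29 without WT 3. Slc25a23, an ATP-Mg/phosphate carrier of low abundance, had 2.25, 1.95 and 2.98 CPM in WT and 2.88, 3.50 and 2.92 CPM in Tg-ACE (0.38, SE 0.23, edgeR adjusted p = 0.797), a change of 0.21 without WT 2. Slc25a16 lay lower in Tg-ACE, at 17.0, 21.1 and 23.1 CPM in WT and 17.4, 20.3 and 17.2 CPM in Tg-ACE (-0.15, SE 0.10, edgeR adjusted p = 0.828). That change was -0.05 without Tg-ACE 3, -0.08 without WT 3 and -0.24 without WT 1 or Tg-ACE 1. The ranges of both genotypes overlapped for these carriers as well.

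By role, the ADP/ATP and phosphate carriers had 5 of 6 above 0 for genotype (median log2 fold change 0.04), the carboxylate carriers 4 of 5 (0.06) and the uncoupling-protein-like carriers 3 of 3 (0.06). Amino acid carriers had 2 of 5 above 0 (-0.03), nucleotide and cofactor carriers 4 of 9 (-0.02), iron and glutathione carriers 2 of 4 (0.01) and the unsettled ones 3 of 6 (0.03). None of these members passed the test, and a sign without a call is a description only.

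Within each experiment the genotype differences of the carriers, in log2 CPM, ran from -0.54 to 0.35 (Exp-156) and from -0.29 to 0.40 (Exp-156b). The comparison of 1 against 1 library in Exp-156 gave 17 of 38 carriers above 0 (median difference in log2 CPM -0.03), and that of 2 against 2 in Exp-156b gave 23 of 38 (median 0.08). Of all genes 48.7% and 48.3% were above 0. The sign was shared by both experiments in 10 of 38 carriers (26.3%) and in 46.2% of all genes, and the experiments have no library in common. The interaction test, which asks whether the genotype difference itself differs between the codes, called 0 of 38 carriers and 0.0% of 12827 genes. At an unadjusted p under 0.05 it had 3 of 38 carriers (7.89%) against 7.65% of all genes. DESeq2 called 0 carriers and 13 genes. Exp-156 has 1 library per genotype, so the spread comes from Exp-156b alone.

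These 3 were Slc25a11, Slc25a10 and Slc25a39. Slc25a11 was lower in Tg-ACE by library in Exp-156 (difference -0.23 in log2 CPM) and higher in Exp-156b (0.16). Its interaction was 0.39 (SE 0.11, edgeR adjusted p = 0.646). Slc25a10 gave -0.21 and 0.19, with an interaction of 0.41 (SE 0.14, edgeR adjusted p = 0.646). Slc25a39 gave -0.04 and 0.30, with an interaction of 0.33 (SE 0.12, edgeR adjusted p = 0.646). Slc25a23 was higher in Tg-ACE in both, by 0.35 and 0.40.

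**Figure D4:**
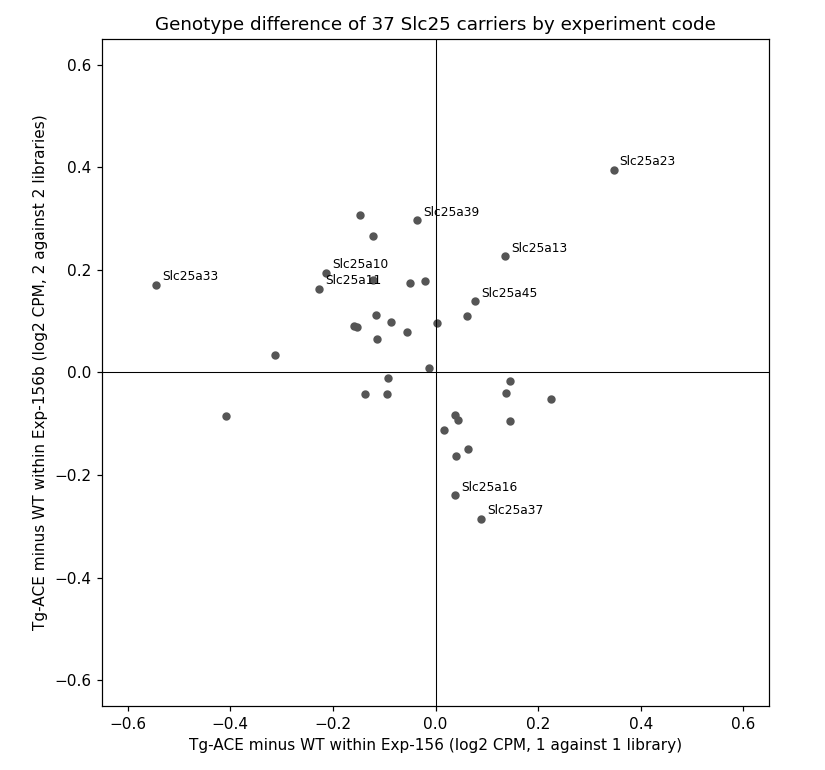
Tg-ACE minus WT difference in log2 CPM of 37 of the 38 tested carriers within Exp-156 (x axis, 1 against 1 library) and within Exp-156b (y axis, 2 against 2 libraries), with 1 point per carrier. Slc25a10, Slc25a11, Slc25a33 and Slc25a39 lie at negative x and positive y, and Slc25a23 lies highest on both axes.

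Of 39 tested genes that work beside the carriers, in 5 lists, 10 were higher and 7 lower in Exp-156b, a share of 43.6% near the 42.9% of all genes. Without WT 1 or Tg-ACE 1 fewer of these 39 genes were called, and fewer of all tested genes as well. The machinery that brings carrier proteins into mitochondria had 7 of 15 higher and 0 lower: Tomm20, Tomm40, Tomm70a, Timm8a1, Timm8b, Timm10 and Timm13. Over all tested genes 20.0% were higher and 22.9% lower. Timm8a1 was low and uneven in Exp-156, at 1.10 CPM in WT 1 and 3.65 CPM in Tg-ACE 1 (edgeR adjusted p = 0.038). Tomm20, a receptor of the outer membrane, was at 88.8, 141.8 and 139.8 CPM in WT and 93.3, 141 and 135.2 CPM in Tg-ACE, a log2 fold change of 0.62 (SE 0.07, edgeR adjusted p = 0.000363). Timm10, a chaperone between the membranes, was at 8.87, 13.7 and 14.6 CPM in WT and 10.01, 14.3 and 15.3 CPM in Tg-ACE (0.61, SE 0.10, edgeR adjusted p = 0.0027). In both, the Exp-156 libraries were the lowest.

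Sideroflexins, another family of mitochondrial transporters, had 2 of 5 lower: Sfxn3 (91.7, 55.3 and 56.2 CPM in WT; 85.1, 53.0 and 51.6 CPM in Tg-ACE) at -0.71 and Sfxn2 at -0.70 (-0.56 without WT 1, edgeR adjusted p = 0.0557). Relatives of the carriers under other symbols had Mtch2 higher (0.41) and Ucp2 (-0.63) and Slc25a20 (-0.36) lower, of 4 tested. Of the pyruvate carrier and the outer membrane channels, Mpc1 was higher (0.35), 1 of 5. Biogenesis factors had Ppargc1a higher (1.07) and Polg (-0.47), Nrf1 (-0.32) and Gabpa (-0.29) lower, of 10 tested. Ppargc1a was low, at 1.31, 2.66 and 3.22 CPM in WT and 2.04, 5.06 and 3.08 CPM in Tg-ACE (SE 0.27, edgeR adjusted p = 0.0158).

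For genotype 0 of these 39 genes passed and 4 had an unadjusted edgeR p under 0.05. They were Slc25a20, the carnitine-acylcarnitine carrier, Timm13 (log2 fold change 0.22, and 0.145 without Tg-ACE 3), Polg (-0.20) and Vdac1 (0.14). Slc25a20 was at 27.6, 21.7 and 22.6 CPM in WT and 35.5, 27.1 and 27.0 CPM in Tg-ACE, a log2 fold change of 0.31 (SE 0.07, edgeR adjusted p = 0.511), and Tg-ACE was above WT in each experiment.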

How the data were processed

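Per the labels' protocols, poly-A RNA of the 6 macrophage samples was sequenced in single-end runs of 75 bases from strand-marking libraries. The values deposited are expected counts from RSEM, with no normalization, in 1 table of genes; STAR 2.5.0, RSEM 1.2.25, mm10 and GRCh38 are named, per the submitters' processing notes. The annotation and strand setting are not given in the sources used here. Values were rounded to whole counts, and 92 spike-in rows (1 count in all) were left out. Log2 CPM values used a prior count of 2.

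Groups came from sample titles. They say Tg-ACE where the design text has Tg-NKO. The fit used edgeR 4.0.16 (R 4.3.3): quasi-likelihood test, TMM, filterByExpr, experiment code and genotype as terms, Benjamini-Hochberg over 12827 genes at 0.05. SE is the absolute log2 fold change over the square root of F. Exon lengths, positions and shared 75-base windows came from GENCODE vM21 (GRCm38), which held 25251 of the identifiers and all carriers. The fitting code was tested on simulated data. DESeq2 1.42.0, limma-voom (limma 3.58.1), other filters, RLE factors, leaving out libraries, other terms and a replicate block were alternatives.

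Named carriers are the 12 highest in mean RPKM, the 6 with the smallest genotype p, those called for the code and the 3 with the smallest interaction p. Of other genes, those of the 5 pathway lists with the smallest p, and every called gene of these lists, are named. Of the tested carriers 1 is not reported here beyond the counts. The carriers and lists were chosen with earlier results of these data known, so no list was tested. Same-numbered libraries of WT and Tg-ACE deviated together from their group means (correlation over genes 0.856, 0.483 and 0.637), but WT 2 with Tg-ACE 3 (0.539) and WT 3 with Tg-ACE 2 (0.615) did so too. With the code removed, only replicates 2 and 3 could be compared, and same-numbered libraries gave -0.0126. The 2 libraries of a genotype then mirror each other, so the other pairs gave the same value with the sign reversed. No pairing beyond the code was seen for these replicates, and it could not be checked for replicate 1. The code is a term of the fit. No 2 libraries agreed within sampling noise (chi-square per gene at least 12.8).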

Additional observations from a re-analysis of the deposited data

Results flagged for a closer look

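Of 19 carriers looked at, 9 had a genotype difference of opposite sign in the 2 experiments with no overlap of WT and Tg-ACE libraries within Exp-156b. By the same rule there were 14 of all 38 tested carriers (36.8%) and 24.8% of all tested genes. The test of the difference itself was run for each and did not pass for any (edgeR interaction test, adjusted p from 0.646 to 0.918). The interaction, the Tg-ACE minus WT difference in Exp-156b minus that in Exp-156 on the log2 scale, was positive for 6 of them. It was 0.41 for the dicarboxylate carrier Slc25a10, 0.39 for the 2-oxoglutarate/malate carrier Slc25a11 and 0.331 for the glutathione carrier Slc25a39. For the citrate carrier Slc25a1 it was 0.301, for the branched-chain amino acid carrier Slc25a44 0.179 and for the ADP/ATP carrier Slc25a5 0.134. Negative values stood at -0.275 for Slc25a16, -0.241 for the ATP-Mg/phosphate carrier Slc25a24 and -0.138 for Slc25a53. Exp-156 has 1 library per genotype, so the sign there rests on a single pair.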

How the results depend on the processing

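For genotype, 0 carriers were called under every alternative run, and the replicate block called 0 carriers and 2 genes, with a carrier median log2 fold change of 0.02. Over all genes the genotype calls, 2 with the code as a term, were 38 in DESeq2, 9 with no filter on low counts and 0 with genotype alone, and leaving out a library gave 2 to 3. The interaction called 0 genes, but 13 in DESeq2 and, with a library left out, 0 to 14, with 0 carriers in each. For the experiment code, leaving out each library gave 3409 to 5260 genes, 3 to 7 carriers higher, 2 to 4 carriers lower and 11 to 17 genes of the pathway lists. The lowest of these counts came without Tg-ACE 1 or WT 1, which leave Exp-156 with 1 library assumed to vary like the others. At 5 CPM in at least 3 libraries Slc25a33 and Slc25a53 were not tested. Slc25a30 was called in 4 of 12 alternatives, and DESeq2 called Slc25a3 in its place. With the longest transcript as length, Slc25a5 was at 283.0 RPKM and Slc25a3 at 102.3 RPKM, and 11 of the 12 highest carriers were shared. No direction reversed among the results recomputed. With 3 libraries per genotype, differences near the median SE of 0.10 (log2) cannot be detected. Much larger ones can go uncalled as well: Ace, at a log2 fold change of 1.95 (SE 0.23), had an edgeR adjusted p of 0.136.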
